A study of Homo sapiens with 18 samples.

Results

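The genes described here encode the proteins of the cytosolic ribosome. They were taken as every entry of the count table whose symbol is RPL or RPS followed by a number with an optional A, X or L, together with RPLP0, RPLP1, RPLP2 and RPSA. The rule found 81 of the 28278 entries, 49 of the large subunit and 32 of the small subunit, and 80 of them passed the filter on low counts; RPL3L did not. The rule leaves out 7 related genes with other names (among them FAU, RACK1 and RPL36AL), which are given separately.

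The measurements were raw read counts per gene from poly(A)-selected RNA of the cell line LX-2, which was derived from human hepatic stellate cells, the liver cells that lay down scar matrix. All cultures first spent 1 h without serum. The groups were thrombin at 1 U/mL, the protease of blood clotting, and serum-free medium alone as the control, each for 4, 24 or 48 h, with 3 libraries in each of the 6 groups. The libraries of a group carry the numbers 12, 13 and 14, whose meaning the labels do not state, so a p-value here reflects how much these libraries vary, and that variation may be technical. LX-2 is a single immortalised line, and its markers were checked: the 8 stellate or myofibroblast markers summed to 5749 to 7092 CPM (counts scaled by TMM to a common library size) over the 18 libraries, with COL1A1 at a mean of 2274 CPM and VIM at 3593 CPM. LRAT, which marks vitamin A-storing stellate cells, had 0 to 6 counts a library. The 6 hepatocyte markers summed to 3.37 to 6.86 CPM, with TTR at 0 in all libraries. Markers of other liver cells were higher, with 5 genes in each list. Cholangiocyte markers summed to 134 to 278 CPM, macrophage markers to 68.1 to 103 CPM and endothelial markers to 15.6 to 30.0 CPM.

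A ribosome is built from ribosomal RNA and one copy of most of these proteins, except for the acidic stalk proteins, which are present in several copies. Cells make the proteins in matched amounts, and their mRNAs share a start of pyrimidines, the terminal oligopyrimidine (TOP) motif, through which growth signals reach their translation by way of mTOR complex 1. Ribosomal protein mRNAs are usually among the most abundant of a cell, and the human genome holds many processed pseudogenes of them, which are intron-free copies of the mRNA.

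Stretches that a gene shares, or nearly shares, with its pseudogene are shown first. For each gene a coding junction with the fewest mismatches to the copy was chosen, so the match shown is not typical of the gene. The reference transcript of RPSA (chr3:39406689-39412542, GENCODE v29 on GRCh38, plus strand) encodes a small-subunit protein also known as the laminin receptor precursor. RPSAP58 is a single-exon copy at chr19:23827162-23828049. The junction of exons 3 and 4 of RPSA, which lie 2029 bases apart in the genome, reads on in RPSAP58 as an unbroken stretch with 0 mismatches over 60 bases; capitals mark the last base of one exon and the first base of the next.
RPSA: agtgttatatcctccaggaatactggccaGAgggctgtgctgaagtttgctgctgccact
RPSAP58: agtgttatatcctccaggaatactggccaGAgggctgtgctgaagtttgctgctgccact
The junction of exons 2 and 3 of RPL23 (chr17:38847865-38853843, minus strand), over an intron of 289 bases, differs from the single-exon RPL23P8 at chr7:20827326-20827753 by 2 substitutions, A8G and T14C, counted from the first base shown and with the base of RPL23 first.
RPL23: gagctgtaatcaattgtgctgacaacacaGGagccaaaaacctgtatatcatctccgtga
RPL23P8: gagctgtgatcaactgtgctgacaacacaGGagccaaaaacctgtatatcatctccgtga
Of the 245 windows of 50 coding bases that cross an exon junction of RPSA, 221 (90.2%) occurred unbroken in RPSAP58. For RPL13A (chr19:49487554-49492308, plus strand) and the single-exon RPL13AP5 (chr10:96750288-96750899) this was 243 of 309 windows (78.6%), and for RPL23 and RPL23P8 it was 25 of 160 (15.6%).

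Counts of the copies and of the coding genes were then compared. Over the 18 libraries RPSAP58 held 335186 counts and RPSA 12916, a ratio of 26.0. RPL13AP5 held 282962 counts and RPL13A 28599, a ratio of 9.89. The entry RPS14P3, for which the annotation used here has no structure, held 107299 counts and RPS14 9772, a ratio of 11.0. RPL23P8 held 35577 counts and RPL23 10189, a ratio of 3.49. In these 4 pairs the pseudogene entry was the higher, while RPLP0P2, with 5783 counts, stayed below RPLP0, with 21181. RPLP0P2 holds only 4 of the 902 coding windows of RPLP0 (0.443%), so it is no like case to the pairs that share long stretches. At low counts, RPS10P7 held 285 and RPS10 271, a ratio of 1.05, and RPS10P7 holds 0 of the 186 junction windows of RPS10. RPL21P28, a single-exon copy that holds 77.0% of the junction windows of RPL21, had 0.0589 times the counts of RPL21. Whether reads of the coding genes were counted at the copies was not tested, and the levels of these genes are uncertain.

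**Figure D1:**
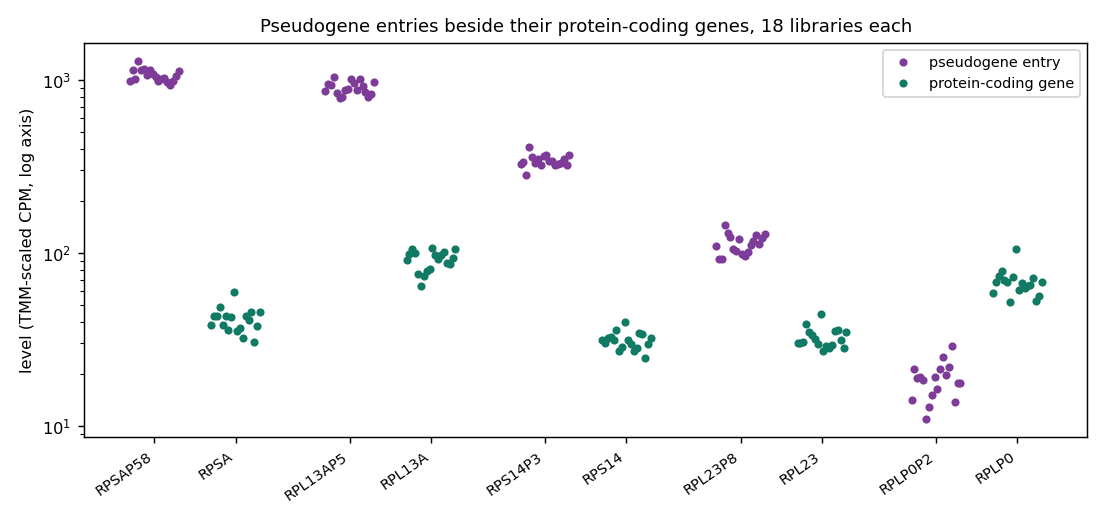
Level of 5 pseudogene entries and of the protein-coding genes they were copied from, each point being 1 of the 18 libraries (vertical axis, TMM-scaled CPM, log axis). RPSAP58, RPL13AP5, RPS14P3 and RPL23P8 lie above their coding genes in every library, and RPLP0P2 lies below RPLP0. RPLP0P2 holds only 0.443% of the coding windows of RPLP0.

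The start of transcription was read for the members with a RefSeq promoter window (GRCh38.p14), 64 of the 81. Within 10 bases before to 20 bases from an annotated start, CTTTC or CTTTT on the sense strand was present for 47 of the 64 members (73.4%). Of the whole table of promoters, 2571 of 27305 genes (9.42%) had it. Some genes have several annotated starts, and a gene was counted when any of its windows held a string. On the antisense strand the motifs were present for 4.69% of the members and 6.78% of all genes. CTTTC was found for 51.6% of the members and 5.29% of all genes and CTTTT for 25.0% and 4.55%, and both figures for the members include the 2 (3.12%) that held both strings. These 2 strings are a crude reading of a TOP start, and a match is a description of the letters, not a mapped start. The windows of 6 members that recur below show the motif in capitals.
RPL21: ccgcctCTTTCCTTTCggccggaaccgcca
RPL12: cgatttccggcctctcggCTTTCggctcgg
RPL13A: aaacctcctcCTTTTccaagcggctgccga
RPL11: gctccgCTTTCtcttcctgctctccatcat
RPL41: cttcgcCTTTCtctcggccttagcgccatt
RPSA: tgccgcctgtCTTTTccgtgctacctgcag
These windows lie at chr13:27251548-27251577 (RPL21, plus strand), chr9:127451387-127451416 (RPL12, minus), chr19:49487598-49487627 (RPL13A, plus), chr1:23691796-23691825 (RPL11, plus), chr12:56116623-56116652 (RPL41, plus) and chr3:39406710-39406739 (RPSA, plus). Another window of RPL11, at chr1:23691769-23691798, held neither string, and neither did the windows of RPL17 and RPLP0.

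Library totals ran between 14431044 and 23270601 counts. A gene was called higher or lower when its edgeR quasi-likelihood adjusted p, with Benjamini-Hochberg adjustment over all 15353 genes tested, was under 0.05. The libraries labelled thrombin 4 h differed from those labelled control 24 h in 11 genes (0.0716%), and those labelled thrombin 24 h from control 4 h in 513 genes (3.34%), whereas thrombin and control differed in 1813 genes at 4 h, in 2700 at 24 h and in 0 at 48 h (DESeq2 called 14 at 48 h). TAGLN, an actin-binding gene of contractile cells, had log2 fold changes of -1.01 ± 0.12 at 4 h and 2.52 ± 0.13 at 24 h. Groups are named as labelled. Whether labels were exchanged between thrombin 4 h and control 24 h, or between thrombin 24 h and control 4 h, was not tested, and every thrombin value at 4 and 24 h below, its direction included, rests on the labels. No ribosomal protein gene was called by edgeR between thrombin 4 h and control 24 h (1 of 80 at an unadjusted p under 0.05) or between thrombin 24 h and control 4 h (4 of 80).

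The 81 genes took a small share of each library. They held 0.387%, 0.392% and 0.389% of the counts in the 3 thrombin 4 h libraries, against 0.481%, 0.398% and 0.382% in control 4 h. They held 0.344%, 0.364% and 0.436% in thrombin 24 h, against 0.397%, 0.403% and 0.390% in control 24 h. At 48 h the shares were 0.399%, 0.408% and 0.431% in thrombin libraries, against 0.356%, 0.371% and 0.445% in control libraries. The groups overlapped at 24 and 48 h, and also at 4 h, where control replicate 14 was below all thrombin libraries. The 95% exact binomial interval of the highest share ran between 0.478% and 0.484%, and such intervals cover counting error only. The 31 pseudogene entries added a further 0.232% to 0.307%. By comparison, 26 translation factors and other genes known for TOP starts summed to 8578 to 10142 CPM, against 2608 to 3372 CPM for the 49 large-subunit genes and 962 to 1439 CPM for the 32 small-subunit genes. The median gene of the 81 stood at 29.4 CPM and the median of all tested genes at 24.9 CPM.

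The members were uneven. RPL29, a basic protein of the large subunit, held 129440 counts over the 18 libraries, 10.3% of all ribosomal protein counts, and RPL15 held 115154 (9.20%). RPL21, RPS23 and RPL41 followed with 52399, 47009 and 46527 counts. Per kilobase of coding sequence the order was RPL41 (1971 CPM per kb), RPL29 (865), RPL15 (600.2), RPL37 (380.0) and RPS23 (348.0), with a median of 65.1 over the 81 genes. RPL41 is the shortest of them, with 75 coding bases. Counts may include untranslated parts, which this length leaves out. The reference transcripts of RPL41, RPL37 and RPS23 have 469, 7686 and 3437 bases, so the order need not hold per base of transcript. At the low end RPS10 had 1.74 and RPL36A 2.55 CPM per kb, with 2 to 28 and 9 to 25 raw counts a library, although both encode core proteins of the ribosome. RPS7 and RPS13 were also low, at 7.05 and 9.97 CPM per kb. Every coding window of RPS10, RPL36A, RPL41 and RPL21 also occurred in a pseudogene, so full overlap with pseudogenes was found at both ends of the order. Across the 81 genes the share of windows found in a pseudogene had a median of 45.3%, and its Spearman correlation with CPM per kb was -0.21. The correlation of the level with the number of exons was -0.30, and with the share of windows that lie within a single exon and in no other gene it was 0.24. These are weak relations across genes of the same libraries, and genes are not independent replicates. They use the level per coding length and share its limit.

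**Figure D2:**
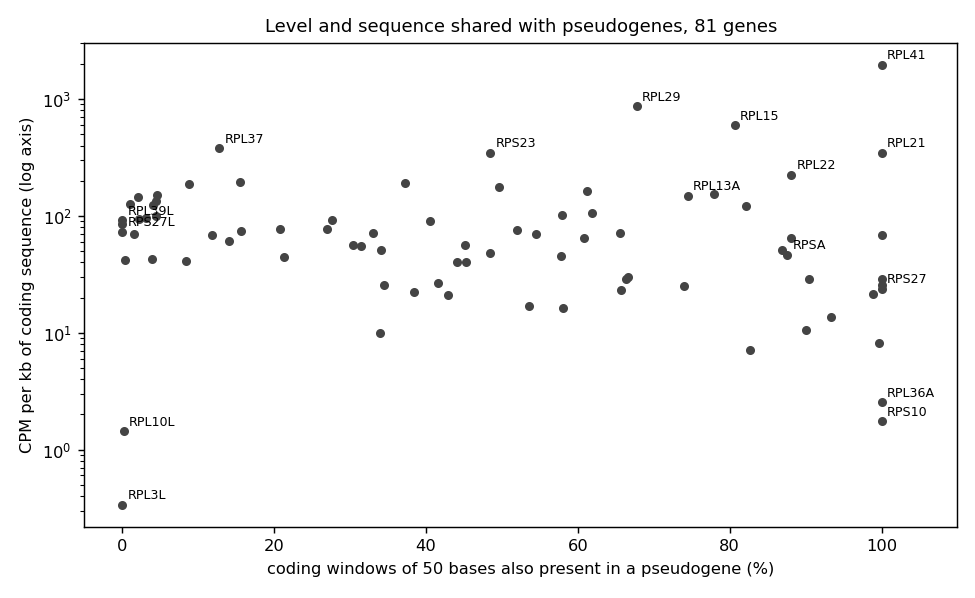
Level of each of the 81 ribosomal protein genes (vertical axis, mean CPM per kb of coding sequence over 18 libraries, log axis) against the share of its 50-base coding windows that also occur in a pseudogene (horizontal axis, percent). RPL41 and RPL21 near the top and RPL36A and RPS10 near the bottom all stand at 100%, and the Spearman correlation over the 81 points is -0.21. Untranslated parts are left out of the length, although counts may include them.

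The 4 paralogs within the rule differed in level. RPL3L, the striated muscle relative of RPL3, had 2 to 15 counts a library and 0.34 CPM per kb, against 56.2 for RPL3. RPL10L, the testis relative of RPL10, had 1.43 CPM per kb, against 123 for RPL10. RPL39L, also known from testis, stood at 92.3 CPM per kb, against 68.3 for RPL39. Taken over all pseudogenes, 100% of the coding windows of RPL39 and 0% of those of RPL39L were found in at least 1. RPS27L, a p53 target, stood at 73.2 CPM per kb, against 23.7 for RPS27, a gene whose coding windows all occur in a pseudogene. These levels divide by coding length alone, while counts may include untranslated parts. The reference transcripts have 6434 bases for RPS27L and 359 for RPS27, and 756 for RPL39L and 401 for RPL39. Neither order need therefore hold per base of transcript. No paralog was called by edgeR in any thrombin comparison (0 of 3 tested, and 0 of 3 at an unadjusted p under 0.05, at each time). Of all tested genes, 11.8%, 17.6% and 0% were called at 4, 24 and 48 h. At an unadjusted p under 0.05 the shares were 26.5%, 30.4% and 7.23%. With 3 genes, 0 called is no sign of a stable level.

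The members shared much of their variation between libraries. For each library the deviation of each gene from its own 18-library mean was taken on the log2 scale, and the median over the 80 tested members is given. It was -0.20, -0.05 and 0.41 in the thrombin 24 h libraries 12, 13 and 14, against -0.08, -0.02 and -0.11 in control 24 h. It was -0.07, -0.04 and -0.07 in thrombin 4 h, against 0.24, 0.07 and 0.01 in control 4 h. It was -0.02, 0.02 and 0.15 in thrombin 48 h, against -0.17, -0.11 and 0.15 in control 48 h. The replicates of thrombin 24 h lay farther apart than any pair of the 6 group means: 73 of 80 members were above their own mean in replicate 14, 30 in replicate 13 and 6 in replicate 12. Control 48 h replicate 14 (78 of 80) and control 4 h replicate 12 (76 of 80) stood high as well.

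Other tested genes with a median annotated transcript length under 1000 bases stood near 0 in thrombin 24 h replicate 14. Such a gene can still have a longer main transcript. There the median deviation was 0.00 for the 2968 other tested genes under 1000 bases, 0.03 for 77 mitochondrial ribosomal protein genes, 0.09 for 22 tested pseudogene entries, 0.15 for the translation factors and other TOP genes and 0.20 for 34 ribosome assembly factors. In control 4 h replicate 12 it was 0.07 for the short genes, 0.22 for the mitochondrial ribosomal proteins and -0.17 for 2086 genes over 4000 bases. The part of these library differences in the results below was not tested beyond leaving libraries out. In bulk RNA, a lower level per cell and fewer cells that express a gene cannot be told apart.

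**Figure D3:**
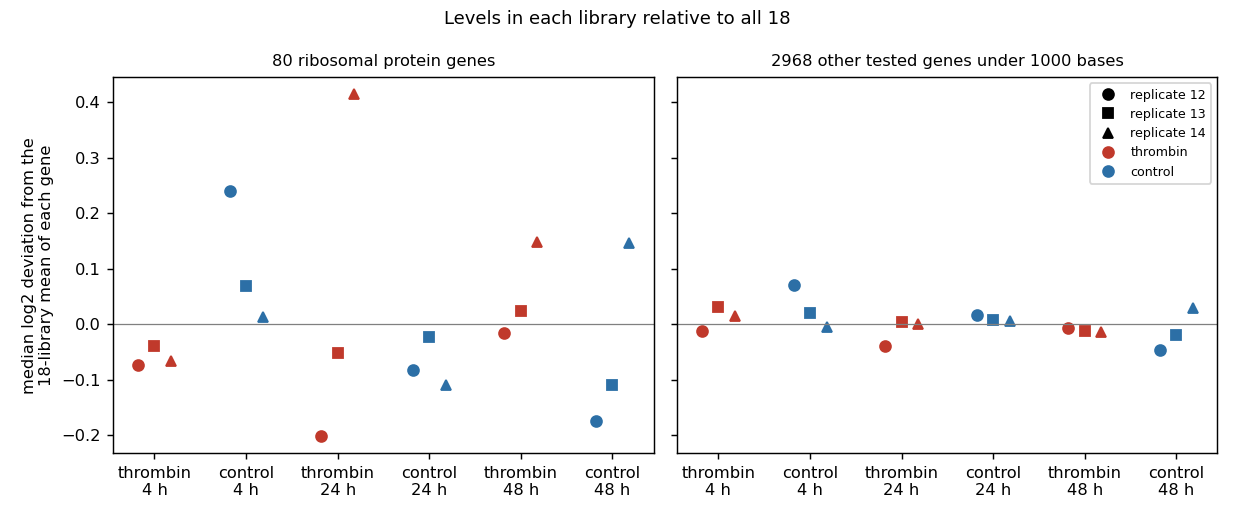
Median log2 deviation of each library from the 18-library mean of each gene, for 80 ribosomal protein genes (left) and for 2968 other tested genes with a median transcript length under 1000 bases (right), by group. In the left panel thrombin 24 h replicate 14 stands at 0.41 and its 2 mates at -0.20 and -0.05, and in the right panel the same library stands at 0.00.

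At 4 h, 0 of the 80 tested ribosomal protein genes were higher and 2 were lower with thrombin than in control, against 11.8% of all tested genes called in either direction, 6.29% higher and 5.52% lower. The 2 were RPL21 and RPL17, both of the large subunit. Most members lay slightly below 0, with 68 estimates below and 12 above, a median log2 fold change of -0.16 and a median over all tested genes of 0.00. The median of the 48 tested large-subunit genes was -0.17 and of the 32 small-subunit genes -0.16. At an unadjusted p under 0.05 there were 15 lower and 1 higher, 16 of 80, against 26.5% of all tested genes in either direction.

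RPL21 had 157, 144 and 124 CPM in the thrombin 4 h libraries, against 213, 188 and 173 CPM in control 4 h. All thrombin libraries were below all control libraries. Its log2 fold change was -0.43 ± 0.10 (SE, n = 3 each; edgeR adjusted p = 0.00404), and it passed without any one of the 18 libraries, with values between -0.51 and -0.34. The gene (chr13:27251309-27256691, plus strand) has 66 pseudogenes in GENCODE, and 0% of its coding windows within an exon are unique to it. RPL17, a protein at the rim of the nascent chain exit tunnel (chr18:49488453-49492523, minus strand), had 5.31, 5.35 and 4.73 CPM with thrombin, against 6.46, 8.82 and 6.47 CPM in control. The groups did not overlap, and control replicate 13 was the highest. Its log2 fold change was -0.51 ± 0.15 (edgeR adjusted p = 0.0247), and without control 4 h replicate 13 it was -0.33 (edgeR adjusted p = 0.227). The call was also lost without thrombin 4 h replicate 13 or 14 (edgeR adjusted p = 0.0604 and 0.110) and with only the libraries of both groups (edgeR adjusted p = 0.0591). RPS27A, a fusion of ubiquitin and a small-subunit protein, had the next largest estimate, -0.43, and did not pass (edgeR adjusted p = 0.0746). Without control 4 h replicate 12, the library that stood high, 1 member was higher (RPL13A) and 2 were lower (RPL17 and RPL21), and the median was -0.10. The share of all genes called without that library is not given here.

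At 24 h, 2 of 80 were higher with thrombin, RPL5 and RPL12, and 1 was lower, RPL13A, against 17.6% of all tested genes called, 9.05% higher and 8.54% lower. The estimates of the members leaned upwards, 64 above 0 and 16 below, with a median log2 fold change of 0.16 against 0.00 over all tested genes. Without thrombin 24 h replicate 14, 57 of 80 estimates were below 0, the median was -0.06 and 0 members were called by edgeR. Without thrombin 24 h replicate 12 the median was 0.29 and 14 were called, 13 of them higher, against 14.4% of all genes tested without that library. Without control 24 h replicate 12, 0 were called and the median was 0.18, and without control 24 h replicates 13 and 14, left out one at a time, 1 was called each time. With total counts in place of TMM the median was 0.05, against -0.11 over all tested genes, and 0 members were called higher and 3 lower. Except without thrombin 24 h replicate 12, the share of all genes called at these settings is not given here. Those counts are therefore no result about the members. The members' mean share of the counts was 0.381% in thrombin 24 h, against 0.397% in control 24 h.

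RPL5 binds 5S ribosomal RNA together with RPL11, and free RPL5 and RPL11 restrain MDM2, the ubiquitin ligase of p53. RPL5 (chr1:92831983-92841924, plus strand) had 19.8, 19.5 and 30.0 CPM in thrombin 24 h, against 17.3, 16.3 and 16.8 CPM in control 24 h. All thrombin libraries were above all control libraries, with replicate 14 far above its mates. The log2 fold change was 0.46 ± 0.14 (edgeR adjusted p = 0.0225), and 0.22 (edgeR adjusted p = 0.315) without that library. The call was also lost without control 24 h replicate 12, 13 or 14 (0.45 to 0.49, edgeR adjusted p between 0.0514 and 0.0775) and with total counts in place of TMM (0.35, edgeR adjusted p = 0.0828). The estimate for RPL11 was 0.16 ± 0.14 on the log2 scale (edgeR adjusted p = 0.476).

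RPL12 sits at the base of the stalk that recruits translation factors. RPL12 (chr9:127447674-127451405, minus strand) had 16.4, 16.3 and 18.2 CPM with thrombin, against 13.0, 14.3 and 13.0 CPM in control. The groups did not overlap and the 3 thrombin libraries lay close together. Its log2 fold change was 0.34 ± 0.11 (edgeR adjusted p = 0.0311), and 0.28 (edgeR adjusted p = 0.151) without thrombin 24 h replicate 14. It was also not called without control 24 h replicate 12 or 14 (edgeR adjusted p = 0.109 and 0.0904), nor with total counts (0.23, edgeR adjusted p = 0.145) or with no filter on low counts (edgeR adjusted p = 0.0924). The stalk proteins proper did not pass: RPLP0, RPLP1 and RPLP2 had log2 fold changes of 0.28, 0.17 and 0.27, with edgeR adjusted p of 0.271, 0.666 and 0.372.

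RPL13A went against most members. It is a large-subunit protein that in human monocytes also acts outside the ribosome in silencing inflammatory transcripts. It had 74.0, 78.7 and 80.5 CPM in thrombin 24 h, against 107, 97.9 and 92.7 CPM in control 24 h, with all thrombin libraries below all control libraries. The log2 fold change was -0.35 ± 0.11 (edgeR adjusted p = 0.0320), and without control 24 h replicate 12 it was -0.29 (edgeR adjusted p = 0.144). The call was also lost without control 24 h replicate 13 or any one of the thrombin 24 h libraries (-0.38 to -0.31, edgeR adjusted p between 0.0601 and 0.0986). At 4 h it had 91.5, 98.7 and 105 CPM with thrombin, against 99.3, 75.6 and 64.5 CPM in control, an estimate of 0.30 ± 0.11 (edgeR adjusted p = 0.0821) with overlapping groups. With the counts of its pseudogene entries added, an alternative chosen after seeing the data, the change at 24 h was -0.17 (edgeR adjusted p = 0.258). The change of RPL13AP5 itself was -0.16 ± 0.10 (edgeR adjusted p = 0.291).

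**Figure D4:**
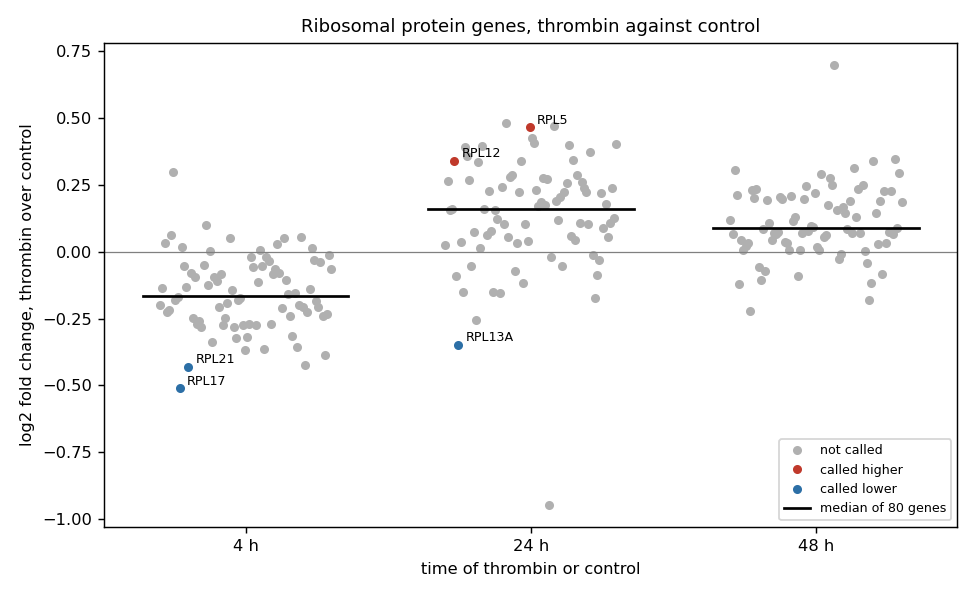
Log2 fold change of thrombin over control for the 80 tested ribosomal protein genes at 4, 24 and 48 h (grey, not called; red, called higher; blue, called lower; black bar, median). The medians are -0.16, 0.16 and 0.09, and the 5 called genes are named.

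At 48 h no member was called by edgeR or DESeq2, and 0% of all tested genes were called by edgeR. At an unadjusted p under 0.05 there were 0 of the 80 members, against 7.23% of all tested genes. Estimates leaned upwards, 68 above 0 and 12 below, with a median of 0.09. The largest was RPS10 at 0.70 ± 0.37, with 1.30, 1.43 and 1.03 CPM in thrombin libraries, against 0.68, 0.64 and 1.01 CPM in control libraries. All thrombin libraries were above all control libraries at a depth of 2 to 28 counts a library over the 18. At 24 h the same gene had the largest fold change in size of all members, -0.95 ± 0.45 (edgeR adjusted p = 0.153), with 0.13, 0.41 and 0.73 CPM with thrombin, against 0.94, 0.73 and 0.90 CPM in control.

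The change with thrombin differed between 24 h and 4 h, by the test of the difference itself, for 12 members, 11 with a higher value at 24 h and RPL13A with a lower one, against 28.0% of all tested genes, 13.6% higher and 14.3% lower. The differences, on the log2 scale, were 0.90 ± 0.22 for RPL17, 0.83 ± 0.20 for RPL5, 0.56 ± 0.15 for RPL12, 0.51 ± 0.13 for RPL21 and -0.65 ± 0.16 for RPL13A, with edgeR adjusted p between 0.00253 and 0.00788. The share of members called was 15.0%. Without thrombin 24 h replicate 12, 28 members were called, against 25.5% of all genes tested without it. By sign alone, 57 members were below 0 at 4 h and above 0 at 24 h, 5 were the reverse, 7 were above 0 at both times and 11 below 0 at both. Without thrombin 24 h replicate 14, 6 members were called, against 22.5% of all genes: RPL5, RPL6, RPL12, RPL17 and RPL21, all higher, and RPL13A, lower. Between 48 h and 24 h the difference was called for RPL12 alone, at -0.46 ± 0.15 (edgeR adjusted p = 0.0462), against 13.8% of all tested genes, 7.16% higher and 6.68% lower.

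**Figure D5:**
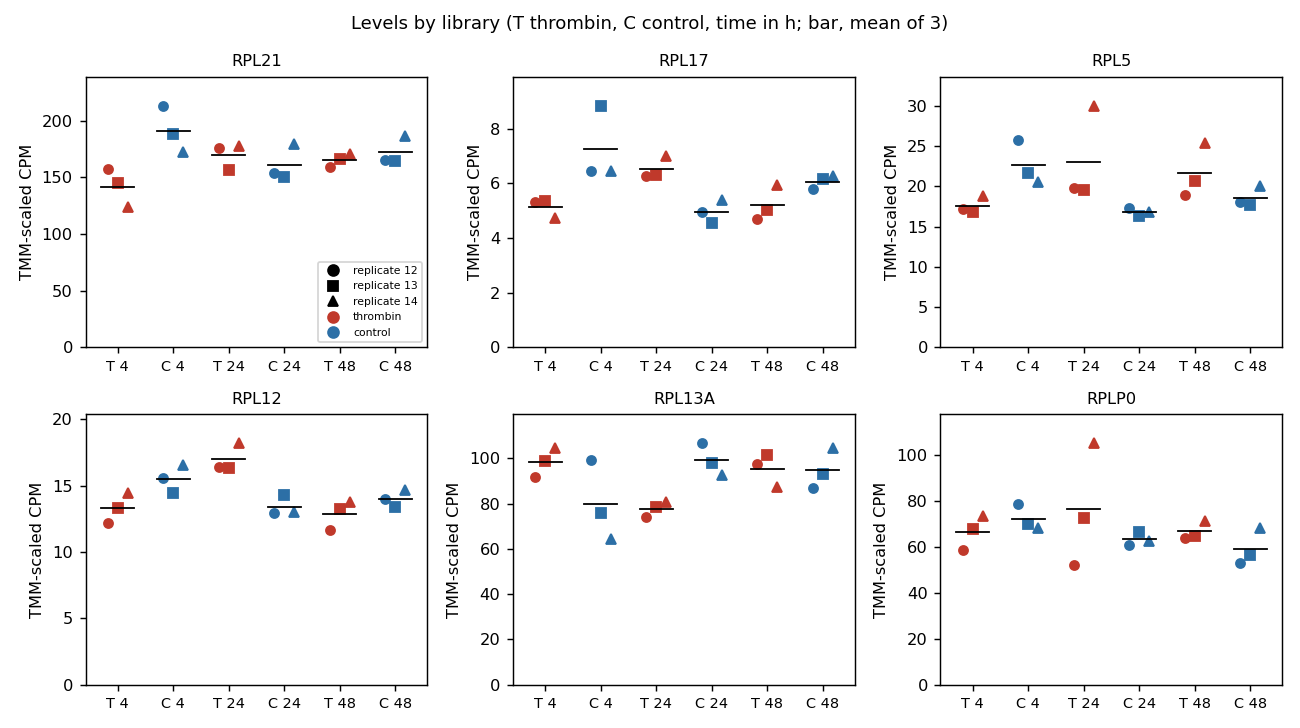
Level of the 5 genes called in a thrombin comparison, and of RPLP0, in each library (vertical axes, TMM-scaled CPM from 0; T, thrombin; C, control; numbers, hours; black bar, mean of 3). RPL5 and RPLP0 in thrombin 24 h are spread by replicate 14, which had 30.0 and 105 CPM, whereas RPL12 and RPL13A in thrombin 24 h are close together.

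The control groups also differed over time. Control 24 h had 0 members higher and 4 lower than control 4 h (RPL5, RPL17, RPL23 and RPL41), against 15.2% of all tested genes (8.10% higher and 7.15% lower), and a median log2 fold change of -0.19. These groups are also the controls of the thrombin comparisons, so the values are not separate evidence. RPL23, a large-subunit protein, had 27.1, 28.8 and 28.2 CPM in control 24 h, against 38.8, 35.1 and 33.6 CPM in control 4 h, without overlap (log2 fold change -0.35 ± 0.12, edgeR adjusted p = 0.0467). The change of its copy RPL23P8 was -0.43 ± 0.09 (edgeR adjusted p = 0.00153). RPL41 had -0.30 ± 0.10 (edgeR adjusted p = 0.0466). Without control 4 h replicate 13 the count was 0, and without control 4 h replicate 12 it was 3, of which 2 were higher. For these fits the share of all genes called is not given here, so the changed counts are no result about the members. Control 48 h and control 24 h differed in 0 members by edgeR and by DESeq2, against 6.12% of all tested genes by edgeR, 2.69% higher and 3.43% lower. At an unadjusted edgeR p under 0.05 there were 3 of the 80 members, against 23.6% of all tested genes.

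Several members serve as reference genes in quantitative PCR, where a stable level is assumed. Of 9 such genes, 1 was called at a single time (RPL13A at 24 h), against 17.6% of all tested genes at 24 h, and 2 were called for the difference of 24 h and 4 h (RPL13A and RPL30), against 28.0%. RPS23 and RPL37A were the least variable of the 9, with a highest library 1.31 and 1.36 times the lowest. RPL13A ranged over 1.65-fold, and RPLP0 over 2.01-fold. RPLP0 had 52.2, 72.6 and 105 CPM in the thrombin 24 h libraries, against 60.9, 66.7 and 62.6 CPM in control 24 h, so the thrombin libraries lay on both sides of the control libraries. RPS18 ranged over 2.07-fold at a mean of 7.68 CPM. The median biological coefficient of variation was 11.4% for the 80 members and 9.24% for all tested genes.

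Genes that build ribosomes, rather than form part of them, are given for comparison. Of all tested genes, 5.52% were called lower and 6.29% higher at 4 h. At 24 h 9.05% were called higher and 8.54% lower, and at 48 h 0% were called. Of 34 ribosome assembly factors, a list chosen with earlier results of these data known, 7 were lower with thrombin at 4 h and 0 higher, 12 were higher at 24 h and 0 lower, and 0 were called by edgeR at 48 h. RRP12, needed for export of both subunits, had log2 fold changes of -0.34 ± 0.09 at 4 h and 0.66 ± 0.09 at 24 h (edgeR adjusted p = 0.0101 and 4.6e-06). MYC, a transcriptional activator of ribosome synthesis, had -0.36 ± 0.08 and 0.78 ± 0.08 (edgeR adjusted p = 0.00478 and 1.43e-07). Of 26 translation factors and other TOP genes, 1 was lower at 4 h, and 2 were higher and 1 lower at 24 h, with PABPC1, the poly(A)-binding protein, at 0.42 ± 0.08 at 24 h (edgeR adjusted p = 0.000404). Of 77 tested mitochondrial ribosomal protein genes, 12 were lower and 1 higher at 4 h, and 2 were lower at 24 h. Of the 7 ribosomal protein genes outside the symbol rule, 0 were called by edgeR at each time. The difference in how often the lists were called was not tested.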

How the data were processed

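RNA of LX-2 cells was sequenced from 18 poly(A)-selected libraries in 6 groups of 3. The authors deposited raw counts per gene symbol as integers. The submitters' processing notes name SAMtools 1.21, DESeq2, Bowtie2 2.5.4 and cutadapt 4.9, and the build GRCh38 (hg38). What each tool did, the counter, its annotation, the strand setting and the treatment of reads with several matches are not given in the sources used here. As a property of the program, Bowtie2 cannot break a read at an intron, so an alignment to the genome could not place reads over exon junctions on a spliced gene, while an intron-free pseudogene could take them. Whether this happened was not tested.

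All 18 columns were matched by name, with 0 left over and 0 entries without a name. In edgeR 4.0.16 (R 4.3.3), genes were kept by filterByExpr (minimum count 10, minimum total 15), libraries were scaled by TMM (factors 0.945 to 1.031), and a quasi-likelihood model with robust dispersion and 1 mean per group was fitted to the 18 libraries (15353 genes, biological coefficient of variation 9.07%, and 12 degrees of freedom for the residuals). Contrasts were tested two-sided at an adjusted p of 0.05, with Benjamini-Hochberg adjustment over all genes tested. The standard error is the log2 fold change divided by the root of its F statistic. The fit was tested on simulated data. Shares of a library have 95% exact binomial intervals, which cover counting error only. Deviations used log2 values of CPM with a pseudocount of 0.1. Gene length was the median over all protein-coding transcripts of a gene in GENCODE v29, and 13265 of the 15353 tested genes had one. Windows of 50 coding bases were taken from GENCODE v29 and promoter windows from RefSeq.

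The genes, the lists and the design were chosen with earlier results of these data known. Genes were named by a rule: up to 5 called members with the smallest adjusted p in each direction and thrombin comparison, the 3 largest changes, the 5 highest and 5 lowest tested members, quantitative PCR reference genes, the paralogs with their relatives, and the stalk, 5S and RPSA genes; of other lists, up to 4 genes at 24 h. RPL6, RPL15, RPL23 and RPL37 and the pseudogene entries were named after their values were seen. Some values that the rule or the flags would give are not reported here. Alternatives were DESeq2 1.42.0, other scaling and filters, a replicate block, fewer libraries and sums with pseudogene entries.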

Additional observations from a re-analysis of the deposited data

Results flagged for a closer look

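The change with thrombin differed between times, by the edgeR test of the difference between times with adjustment over all genes tested, for 12 members between 24 h and 4 h and for 1 between 48 h and 24 h. Among those higher at 24 h than at 4 h, on the log2 scale, were RPL17 by 0.90, RPL5 by 0.83, RPS27A by 0.80, RPL6 by 0.74, RPS24 by 0.62, RPL23 by 0.59, RPL12 by 0.56, RPL21 by 0.51, RPL30 by 0.46 and RPL9 by 0.46. The difference for RPL13A was -0.65. Between 48 h and 24 h the difference for RPL12 was -0.46. Each difference compares 4 groups of 3 libraries, and those for RPL12 between 48 h and 24 h (edgeR adjusted p = 0.0462) and RPL9 (edgeR adjusted p = 0.0446) were close to the threshold. Without thrombin 24 h replicate 14 the difference for RPL30 was 0.23 (edgeR adjusted p = 0.224) and for RPS27A 0.59 (edgeR adjusted p = 0.0533).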

How the results depend on the processing

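The number of ribosomal protein genes called depended on the libraries and settings, and the cause was not tested. In the main fit 11.8% of all tested genes were called at 4 h, 17.6% at 24 h and 0% at 48 h. For 24 h minus 4 h it was 28.0%, and for 48 h minus 24 h 13.8%. The 2 control comparisons had 15.2% and 6.12%. For most other settings the share of all genes is not given, so a changed count is no result about the members. Leaving out each library in turn gave 1 to 6 called at 4 h (main 2), 0 to 14 at 24 h (main 3), 0 at 48 h, 6 to 28 for the difference of 24 h and 4 h (main 12), 0 to 2 for the difference of 48 h and 24 h (main 1), 0 to 9 for control 24 h against control 4 h (main 4) and 0 for control 48 h against control 24 h. The median log2 fold change ran between -0.21 and -0.10 at 4 h, -0.061 and 0.29 at 24 h, and 0.02 and 0.20 at 48 h; -0.061 belongs to thrombin 24 h replicate 14 left out. The balance of called genes reversed at 24 h without control 24 h replicate 14 (1, lower), for 48 h minus 24 h without thrombin 24 h or control 48 h replicate 14 (1 each, RPS10, higher), and for control 24 h against control 4 h without control 4 h replicate 12 (3, of which 2 higher).

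With no filter on low counts the counts were 9 at 4 h, 9 at 24 h, 23 for 24 h minus 4 h and 16 for control 24 h against 4 h. With DESeq2 they were 4 at 4 h, where it called 2104 genes in all, and 6 at 24 h, where it called 2877. With total counts in place of TMM, 3 were called at 24 h, all lower (RPL13A, RPL15 and RPL22), 6 for 24 h minus 4 h, 1 for 48 h minus 24 h (RPS10, higher) and 2 for the controls. Without all libraries numbered 12 they were 4, 13 and, for 48 h minus 24 h, 0, with 3 for control 24 h against 4 h, 2 of them higher. With only the groups compared they were 2 for 48 h minus 24 h and 13 for control 24 h against 4 h.

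Chosen after seeing the data, sums with pseudogene entries gave 2 for 48 h minus 24 h, and leaving out the 3 libraries with the highest member share gave 4 at 4 h, 2 at 24 h (both lower), 6 for 24 h minus 4 h, 7 for 48 h minus 24 h (all higher), 7 and 1 for the control comparisons, and a median of -0.054 at 24 h. Adding all pseudogene entries raised the library share to between 0.576% and 0.787%, and leaving out RPL29 lowered it to between 0.307% and 0.429%.

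The shared numbers gave no clear pairing of the libraries, and pairing was not tested. In their deviations, 11 of 45 same-numbered pairs correlated over 0.1, and 0 of the 9 pairs of thrombin and control at the same time did. The 45 correlations ran between -0.17 and 0.28, with a median of 0.01, and 8 of 18 libraries correlated best with their own number. With the number as a replicate block, 3, 4, 0, 12, 1, 4 and 0 genes were called in the 7 comparisons. RPS10 and RPL36A have too few counts for small changes to be seen.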

Other observations

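Among the 22 tested pseudogene entries, 3 were called at 4 h and 2 at 24 h by edgeR, against 11.8% and 17.6% of all tested genes. RPL13AP20, a single-exon copy of RPL13A at chr12:12875499-12876107 (GRCh38), had 4.57, 5.10 and 4.20 CPM in thrombin 4 h, against 8.88, 8.29 and 7.72 CPM in control 4 h. It had 5.45, 8.22 and 8.12 CPM in thrombin 24 h, against 3.27, 4.62 and 3.78 CPM in control 24 h. The groups did not overlap at either time, and the log2 fold changes were -0.84 ± 0.17 at 4 h (edgeR adjusted p = 0.00190) and 0.90 ± 0.18 at 24 h (edgeR adjusted p = 0.000991), opposite in sign to the estimates for RPL13A. Its 49 to 188 counts a library were 0.0580 times those of RPL13A over the 18 libraries. RPL13P5, an entry that holds 0% of the coding windows of RPL13, had 4.52, 4.54 and 5.21 CPM in thrombin 4 h, against 2.72, 2.34 and 3.27 CPM in control 4 h, without overlap (log2 fold change 0.79 ± 0.19, edgeR adjusted p = 0.00855). RPL13 itself was not called. The other called entries were RPL23P8 at 4 h, which stood at -0.44 ± 0.09 on the log2 scale (edgeR adjusted p = 0.00190), and RPL23AP82 at 24 h, with -0.37 ± 0.13 (edgeR adjusted p = 0.0469). These entries were named after their values were seen.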
